A study of Mus musculus with 16 samples.

Results

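The genes described here carry out mitosis and cytokinesis: 48 genes for chromosome compaction, mitotic kinases, the kinetochore, the spindle and its checkpoint, chromosome separation, cell cleavage and centriole duplication, together with the transcription factor gene Foxm1. They were taken by name from a list of such genes, and all 48 were found among the 24421 gene rows of each of 2 count tables of mouse liver. DKO livers carried ARID1A f/f and ARID1B f/f with the Alb-Cre transgene (Alb-Cre+, 4 libraries), and their controls carried the same floxed alleles without it (Alb-Cre-, 4 libraries). BKO livers were ARID1B f/f, Alb-Cre+ (4 libraries), with ARID1B f/f, Alb-Cre- controls (4 libraries). A BAF chromatin remodelling complex holds either ARID1A or ARID1B, and Alb-Cre is a recombinase driven by the albumin promoter, which is active in hepatocytes, so the other cell types of the liver are not its target. All groups carried floxed Arid1b, every knockout carried Cre and no control did, and no group lost ARID1A alone. An effect of Cre itself, or of ARID1A loss alone, cannot be told apart from that of the knockouts. The labels give no age.

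In mitosis, condensin and topoisomerase II shape the chromosomes, kinetochores built on centromeric chromatin attach them to spindle microtubules, and the spindle checkpoint holds back the anaphase promoting complex until every chromosome is attached. That complex, switched on by Cdc20, then marks securin and cyclin B for destruction, separase opens cohesin, and the central spindle directs the cleavage furrow. Most of these genes are transcribed in late cell cycle stages through a shared promoter logic: the DREAM complex represses them in resting cells, and the MYBL2-MuvB complex and FOXM1 activate them in dividing cells, both through a CHR element (cell cycle genes homology region), often with CCAAT boxes bound by NF-Y nearby. Adult hepatocytes rarely divide, and many are polyploid or hold a pair of nuclei after incomplete cytokinesis.

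The promoters of the group are shown because they share those elements. RefSeq windows on GRCm38.p6, from 250 bases before to 50 bases after the start, were matched by symbol for 42 of the 48 genes; Aurkb, Foxm1, Kif20a, Smc4, Spc24 and Tpx2 had no window in the table used. The CHR letters TTTGAA, searched on both strands, were in the windows of 31 of the 42 genes (73.8%), against 17.9% of 32851 promoter windows of the same length. The CCAAT letters were in 30 (71.4%, against 37.4%), and both were in 26 (61.9%, against 6.95%). The E2F core letters GCGGGAA were in 3 of the 42 (7.14%, against 4.6%). A match is a description of the letters and not a binding site. The promoters below belong to the member with the smallest DKO p-value in each of 5 functional groups. The 5 are those with the smallest p-values among groups whose first member had a window. The group of spindle motors and microtubule proteins, led by Tpx2, was passed over for want of one. Each is printed 5′ to 3′ on the gene's strand, from 250 bases before to 30 bases after the start, with any match to the 3 motifs, in either orientation, in capitals.
Top2a (chr11:99024160-99024439, minus strand): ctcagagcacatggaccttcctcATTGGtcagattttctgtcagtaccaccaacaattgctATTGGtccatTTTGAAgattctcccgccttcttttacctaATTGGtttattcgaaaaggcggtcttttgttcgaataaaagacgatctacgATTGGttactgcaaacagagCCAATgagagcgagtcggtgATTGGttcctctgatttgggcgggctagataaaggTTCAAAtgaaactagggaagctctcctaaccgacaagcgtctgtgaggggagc
Plk1 (chr7:122159185-122159464, plus strand): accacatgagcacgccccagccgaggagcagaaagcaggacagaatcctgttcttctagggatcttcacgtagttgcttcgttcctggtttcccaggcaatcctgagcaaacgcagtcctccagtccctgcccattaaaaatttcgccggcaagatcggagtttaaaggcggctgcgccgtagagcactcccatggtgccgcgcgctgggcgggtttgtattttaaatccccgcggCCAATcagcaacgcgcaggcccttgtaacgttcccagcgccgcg
Prc1 (chr7:80294201-80294480, plus strand, the first of 2 windows): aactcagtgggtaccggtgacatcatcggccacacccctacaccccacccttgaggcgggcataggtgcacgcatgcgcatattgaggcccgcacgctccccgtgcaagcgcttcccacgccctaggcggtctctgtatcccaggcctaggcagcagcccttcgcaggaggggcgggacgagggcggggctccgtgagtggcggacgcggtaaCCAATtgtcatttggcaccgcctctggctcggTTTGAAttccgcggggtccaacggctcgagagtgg
Cenpf (chr1:189688057-189688336, minus strand): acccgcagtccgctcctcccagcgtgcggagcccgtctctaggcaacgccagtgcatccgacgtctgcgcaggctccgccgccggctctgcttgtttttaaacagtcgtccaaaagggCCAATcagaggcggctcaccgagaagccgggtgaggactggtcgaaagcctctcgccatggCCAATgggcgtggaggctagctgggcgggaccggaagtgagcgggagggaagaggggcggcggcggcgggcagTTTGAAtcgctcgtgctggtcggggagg
Cdc20 (chr4:118437314-118437593, minus strand): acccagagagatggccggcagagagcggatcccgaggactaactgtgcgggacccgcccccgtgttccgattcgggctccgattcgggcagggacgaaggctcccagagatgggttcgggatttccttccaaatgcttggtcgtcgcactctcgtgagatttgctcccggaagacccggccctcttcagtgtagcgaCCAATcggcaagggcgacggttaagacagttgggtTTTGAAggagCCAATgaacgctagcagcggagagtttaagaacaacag
Top2a held copies of the CCAAT letters in both orientations along the window. In Prc1, Cenpf and Cdc20 a TTTGAA lay close to the start, downstream of a CCAAT. In Plk1 a CCAAT lay just before the start and the TTTGAA began 31 bases after it, past the printed stretch.

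Depth was 8699417 to 11031443 counts per library for DKO livers and controls, and 21151726 to 40551934 for BKO livers and controls. In BKO livers Arid1b was at 41.7, 46.8, 40.1 and 48.4 CPM (library-size scaled counts, with edgeR's TMM factors) against 85.5, 86.4, 85.5 and 81.9 CPM in the controls (log2 fold change -0.94 with SE 0.09, edgeR adjusted p = 0.00154). In DKO livers it was at 55.4, 61.4, 78.0 and 45.4 against 80.7, 82.0, 97.1 and 97.3 CPM (log2 fold change -0.57 with SE 0.16, edgeR adjusted p = 0.0167), a call that ended without DKO-7068 (adjusted p = 0.0523) or with scaling by total counts (adjusted p = 0.091). Arid1a did not pass in DKO livers, at 110.3, 99.6, 106 and 114 against 128, 112, 136 and 118 CPM (log2 fold change -0.20 with SE 0.10, edgeR adjusted p = 0.149), or in BKO livers (log2 fold change 0.06 with SE 0.10, edgeR adjusted p = 0.883). The counts are of whole genes in whole liver, so they include exons outside the deleted parts and cells without Cre. Albumin took 3.759% to 6.38% of all counts in DKO livers and 8.625% to 9.935% in their controls, and 6.772% to 9.304% in BKO livers against 7.289% to 8.227%, so all libraries had the hepatocyte signal of their label. Animals are told apart only by the tags in the labels, and the BKO controls F5 and F5-2 share a tag, so these may come from 1 animal. With both summed into 1 sample, 1 mitosis gene was called in BKO livers, as with 4 controls. DKO-7068 and DKO-7070 resembled each other most: chi-square over degrees of freedom was 7.32, against 27.3 to 122 for other pairs within a group. These tags differ, and the pair was counted as 2 samples. A ratio above 1 shows only a difference beyond counting noise, not separate animals. With the pair summed into 1 sample, 45 mitosis genes were called in DKO livers, as many as with 4.

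The mitosis genes were higher in DKO livers as a group. Of the 48, all tested, 45 were higher than in the controls (93.8%, against 19.2% of all 12848 genes tested), 0 were lower (against 16.6%), and 3, Spc24, Spc25 and Pttg1, did not pass. The count of 0 lower was the same at an unadjusted p under 0.05 (against 21.3% of all genes) and with DESeq2 and limma voom. Genes were called at an edgeR adjusted p under 0.05, with 4 libraries per group here and below. The median log2 fold change was 2.09, against 0.02 over all genes tested. Called genes were between 1.66-fold (Smc4) and 15.3-fold (Plk1) higher, as ratios of mean CPM, 43 of them by at least 2-fold and 5 by at least 10-fold: Plk1, Tpx2, Cenpf, Ube2c and Cdca3. The 2 groups of libraries did not overlap for 42 of the 48 genes (87.5%, against 18.5% of all genes tested). Levels were low: 13 of the 48 had a control mean under 1 CPM, so their folds are less certain than those of the abundant genes. The filter on low counts asks for enough reads in 4 libraries, so genes this low in controls could pass it through the DKO livers. Such genes could hardly be called lower, so the counts of higher and lower genes are in part set by the filter. In whole liver, more dividing cells and more RNA per cell cannot be told apart.

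**Figure D1:**
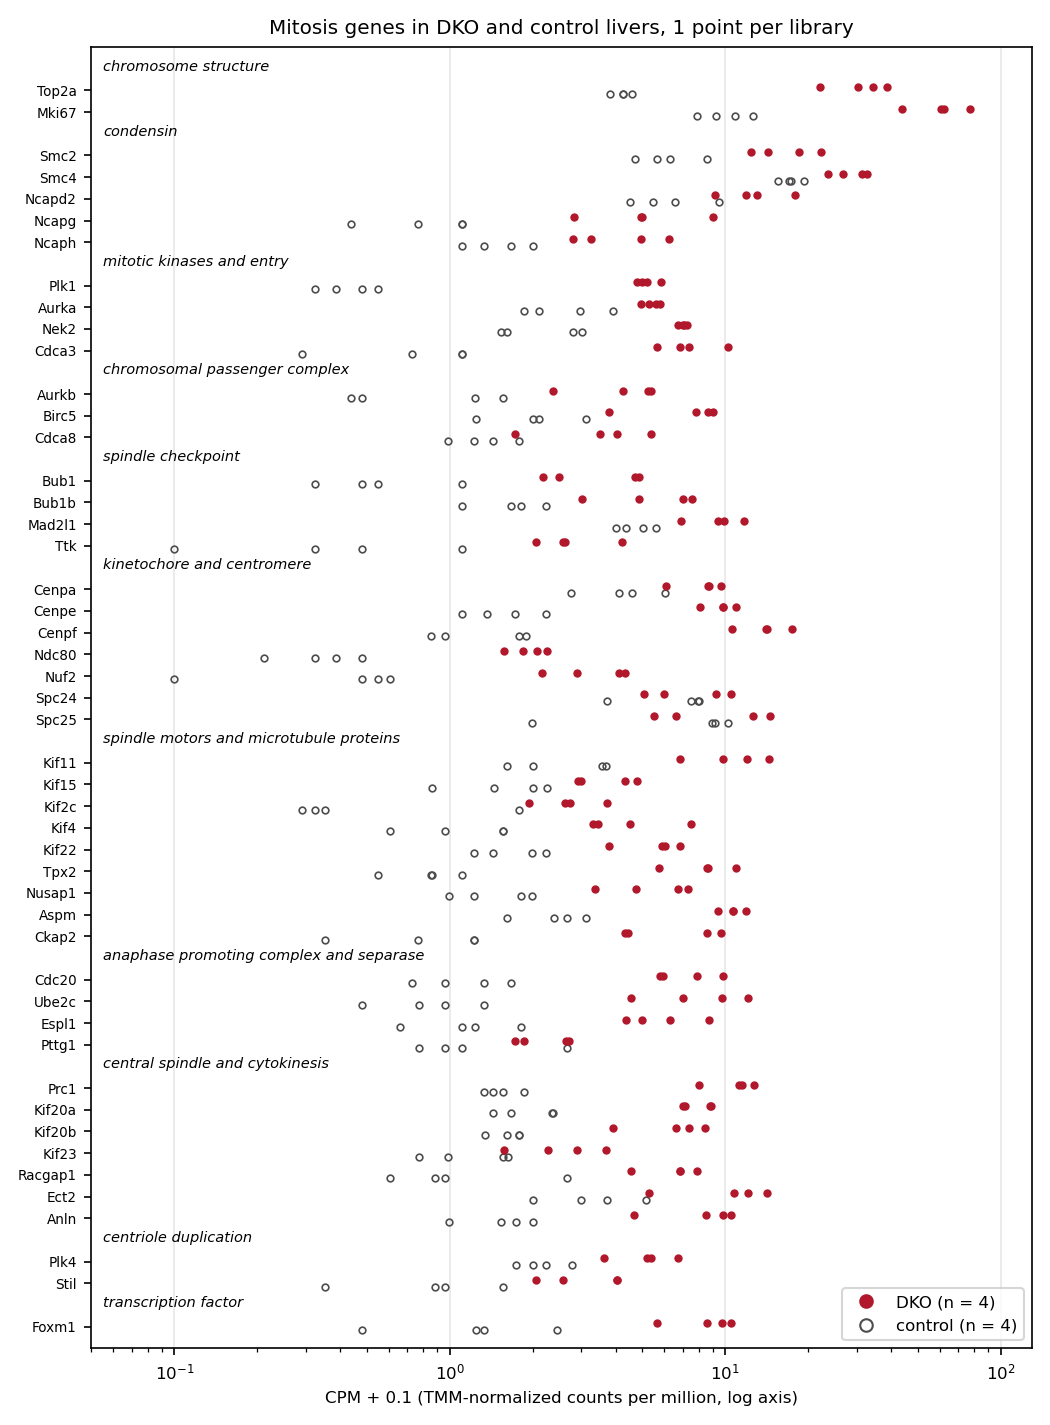
Each row is a mitosis gene and each point a library of the DKO experiment, filled for DKO and open for controls, on a log axis of CPM plus 0.1, with genes grouped by role. The filled points lie to the right of all open points for 42 of 48 genes, and those of Spc24, Spc25 and Pttg1 mix with the open points.

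Chromosome structure and condensin genes were all higher in DKO livers, 7 of 7. Libraries are listed from here on in the order DKO-7068, DKO-7070, DKO-7112 and DKO-7137, and controls in the order WT-7067, WT-7069, WT-7114 and WT-7139. Top2a (chr11:98992943-99024189 on GRCm38), the topoisomerase that untangles sister chromatids, was at 38.6, 34.4, 22.0 and 30.2 CPM in DKO livers and 4.14, 3.72, 4.49 and 4.16 CPM in controls. The lowest DKO library was far above the highest control (7.58-fold, log2 fold change 2.92 with SE 0.19, edgeR adjusted p = 4.38e-06). Mki67 (chr7:135689784-135716361), which coats mitotic chromosomes and is the usual marker of cycling cells, was at 77.5, 60.5, 43.7 and 62.2 against 9.18, 7.83, 10.8 and 12.5 CPM (6.06-fold, log2 fold change 2.60 with SE 0.20, edgeR adjusted p = 1.25e-05). Its groups did not overlap either, and DKO-7112 was the lowest DKO library for both genes. Among the condensin subunits, Ncapg (chr5:45669919-45700546), of the condensin I complex, was at 8.95, 4.86, 2.71 and 4.87 against 1.01, 0.668, 0.337 and 1.01 CPM (7.08-fold, log2 fold change 2.83 with SE 0.44, edgeR adjusted p = 0.000757). Smc2 (chr4:52439243-52488260), an ATPase shared by condensin I and II, was at 22.3, 18.4, 14.2 and 12.3 against 8.51, 6.21, 4.60 and 5.55 CPM (2.70-fold, log2 fold change 1.44 with SE 0.24, edgeR adjusted p = 0.00105). The other condensin genes were 2.95-fold (Ncaph), 2.01-fold (Ncapd2) and 1.66-fold (Smc4) higher. The groups overlapped only for Ncapd2 among these 7, where DKO-7112 (9.12 CPM) was below WT-7114 (9.42 CPM). Ncapg had the largest fold of the 5 condensin genes and the ATPase Smc4 the smallest, and Smc4 had the highest control level per kilobase of exon (3.30 CPM per kb, against 0.107 for Ncapg).

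All 4 mitotic kinase and entry genes were higher, and the 4 DKO livers were close to each other for Plk1, Nek2 and Aurka. Plk1 (chr7:122159439-122169873), a kinase of mitotic entry, centrosome maturation and cytokinesis, was at 5.75, 4.68, 5.10 and 4.87 CPM in DKO livers and 0.224, 0.286, 0.449 and 0.379 CPM in controls. It had the largest fold of the 48 genes (15.3-fold, log2 fold change 3.89 with SE 0.29, edgeR adjusted p = 9.84e-06). Cdca3 (chr6:124829547-124833701), which promotes the destruction of the Wee1 kinase at entry, was at 10.1, 7.29, 5.54 and 6.74 against 1.01, 0.191, 1.01 and 0.631 CPM (10.4-fold, log2 fold change 3.39 with SE 0.38, edgeR adjusted p = 0.000117). Nek2, a centrosome kinase, was at 6.98, 6.93, 7.16 and 6.63 against 2.91, 1.43, 2.69 and 1.51 CPM (3.24-fold, edgeR adjusted p = 0.00057). The spindle pole kinase gene Aurka was 2.03-fold higher (edgeR adjusted p = 0.0102). In these 4 genes no DKO library overlapped the controls.

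The chromosomal passenger complex, which corrects faulty attachments and later drives cytokinesis, was represented by 3 genes, all higher. Birc5 (chr11:117849251-117855743), the survivin subunit, was at 8.54, 7.74, 3.69 and 8.91 against 2.02, 1.15, 1.91 and 3.03 CPM (3.57-fold, log2 fold change 1.85 with SE 0.34, edgeR adjusted p = 0.00207). Its kinase Aurkb (chr11:69045647-69051664) was at 5.26, 5.13, 2.28 and 4.14 against 1.46, 0.382, 0.337 and 1.14 CPM (5.08-fold, log2 fold change 2.36 with SE 0.46, edgeR adjusted p = 0.00261). The borealin gene Cdca8 was 2.84-fold higher (edgeR adjusted p = 0.0103), with DKO-7112 at 1.63 CPM inside the control range. DKO-7112 was the lowest DKO library for all 3.

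All 4 spindle checkpoint genes were higher. Bub1 (chr2:127801122-127831865), a kinetochore kinase that recruits checkpoint proteins, was at 4.60, 4.77, 2.39 and 2.07 against 0.448, 0.382, 0.224 and 1.01 CPM (6.70-fold, log2 fold change 2.77 with SE 0.47, edgeR adjusted p = 0.00122). Bub1b (chr2:118598211-118641591), which encodes the BubR1 inhibitor of Cdc20, was at 7.47, 6.93, 2.93 and 4.77 against 1.57, 1.72, 2.13 and 1.01 CPM (3.44-fold, log2 fold change 1.77 with SE 0.34, edgeR adjusted p = 0.00255). In both genes every DKO library exceeded every control. Mad2l1, another Cdc20 inhibitor, was 2.02-fold higher (edgeR adjusted p = 0.00292). The Mps1 kinase gene Ttk was 6.86-fold higher (edgeR adjusted p = 0.00428), a ratio that rests on few control counts and reached 13.7 without WT-7067.

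At the kinetochore, 5 of 7 genes were higher, and both that did not pass belong to the NDC80 complex, the rod that holds the microtubule. Cenpf (chr1:189640606-189688086), a large coiled-coil protein of the outer kinetochore, was at 17.3, 13.9, 10.5 and 14.1 against 1.68, 0.859, 1.79 and 0.757 CPM (11.0-fold, log2 fold change 3.45 with SE 0.28, edgeR adjusted p = 1.89e-05). Cenpe (chr3:135212537-135273611), a kinesin that brings chromosomes to the spindle equator, was at 9.69, 10.9, 8.03 and 9.74 against 2.13, 1.62, 1.01 and 1.26 CPM (6.37-fold, log2 fold change 2.66 with SE 0.24, edgeR adjusted p = 2.87e-05). No library of either gene crossed between the groups. Cenpa, the centromeric histone H3 variant, was 1.91-fold higher (edgeR adjusted p = 0.0147), a call that ended narrowly without DKO-7070 (adjusted p = 0.0501).

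Within the NDC80 complex, Ndc80 and Nuf2 form the end that grips the microtubule, and Spc24 and Spc25 the end anchored at the centromere. Ndc80 (chr17:71496100-71526857) was at 1.48, 2.16, 1.74 and 1.97 against 0.224, 0.286, 0.112 and 0.379 CPM (7.34-fold, log2 fold change 2.82 with SE 0.39, edgeR adjusted p = 0.000383). Nuf2 (chr1:169497934-169531464) was at 4.02, 4.23, 2.06 and 2.80 against 0.448, 0.382, 0 and 0.505 CPM (9.83-fold, log2 fold change 3.27 with SE 0.51, edgeR adjusted p = 0.000786). Both were separated between the groups. Spc24 (chr9:21755442-21760303) was at 10.4, 9.18, 4.99 and 5.91 against 7.84, 3.63, 7.96 and 7.44 CPM and did not pass the test (log2 fold change 0.20 with SE 0.30, edgeR adjusted p = 0.647). Spc25 (chr2:69193895-69206194) was at 14.5, 12.5, 5.43 and 6.53 against 9.07, 10.1, 8.86 and 1.89 CPM and did not pass either (log2 fold change 0.38 with SE 0.48, edgeR adjusted p = 0.587). For both, DKO-7068 and DKO-7070 were the highest of the 4 DKO libraries and DKO-7112 and DKO-7137 lay within the control range, and 1 control was far below the others, WT-7069 for Spc24 and WT-7139 for Spc25. In control livers the mean level was 2.61 CPM per kb of exon for Spc24 and 2.35 for Spc25, against 0.0385 for Ndc80 and 0.0526 for Nuf2. The difference in fold between the subunits was not itself tested.

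**Figure D2:**
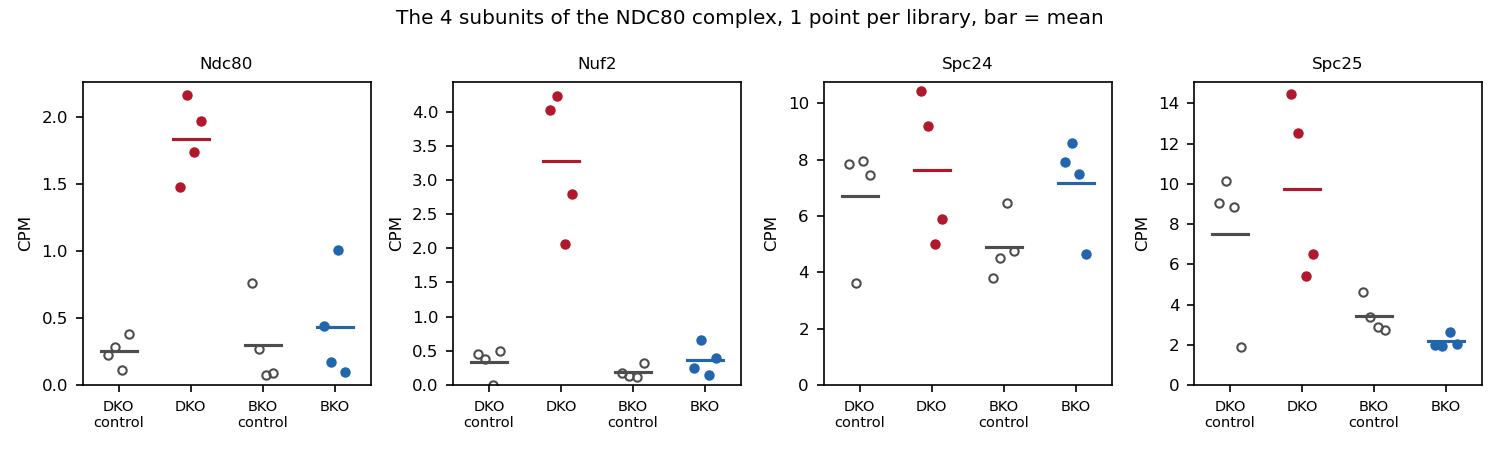
Level of each NDC80 complex subunit in CPM on the vertical axis for the 4 groups of 4 libraries, with a point per library and a bar at the mean. DKO points stand above all control points for Ndc80 and Nuf2 and mix with them for Spc24 and Spc25.

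All 9 genes of spindle motors and microtubule proteins were higher, and none had overlapping groups. Tpx2 (chr2:152847964-152895321), which activates Aurora A and nucleates microtubules near chromosomes, was at 10.8, 8.55, 5.64 and 8.50 against 1.01, 0.764, 0.449 and 0.757 CPM (11.3-fold, log2 fold change 3.47 with SE 0.30, edgeR adjusted p = 2.31e-05). Aspm (chr1:139454772-139494091), which focuses the spindle poles, was at 11.8, 10.6, 9.33 and 10.6 against 2.58, 2.29, 3.03 and 1.51 CPM (4.50-fold, log2 fold change 2.16 with SE 0.21, edgeR adjusted p = 5.07e-05). Aspm varied little among DKO livers. The motor that slides the poles apart, Kif11, was 4.07-fold higher (edgeR adjusted p = 0.000796), and Kif15, which can act in its place, 2.38-fold (edgeR adjusted p = 0.0142). The chromokinesin genes Kif4 and Kif22 were 4.30-fold and 3.42-fold higher. The microtubule-binding Ckap2 and Nusap1 were 8.40-fold and 3.87-fold higher. Kif2c, a kinesin that shortens microtubules, was 4.52-fold higher (edgeR adjusted p = 0.0154), or 11.9-fold without WT-7114, the only control above 1 CPM.

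Of the 4 genes that act in the release of sister chromatids, 3 were higher. Cdc20 (chr4:118432901-118437352), the activator of the anaphase promoting complex, was at 9.69, 7.83, 5.86 and 5.70 against 1.57, 0.859, 1.23 and 0.631 CPM (6.78-fold, log2 fold change 2.75 with SE 0.31, edgeR adjusted p = 0.000107). Ube2c (chr2:164769898-164778822), the ubiquitin-conjugating enzyme that works with it, was at 12.0, 9.63, 4.45 and 6.94 against 0.672, 0.859, 1.23 and 0.379 CPM (10.5-fold, log2 fold change 3.36 with SE 0.40, edgeR adjusted p = 0.000148). Every DKO library exceeded every control for both. The separase gene Espl1 was 5.42-fold higher (edgeR adjusted p = 0.000503). Its inhibitor securin, encoded by Pttg1 (chr11:43420250-43426251), was at 2.55, 1.62, 2.61 and 1.76 against 2.58, 0.859, 0.673 and 1.01 CPM and did not pass (log2 fold change 0.74 with SE 0.42, edgeR adjusted p = 0.202). The control WT-7067 lay among the DKO values, and without it Pttg1 passed (log2 fold change 1.32, edgeR adjusted p = 0.019). Of 11 core subunits of the anaphase promoting complex, 0 were called by edgeR (against 19.2% higher and 16.6% lower over all genes) or DESeq2, and 1 by limma voom, with folds of 0.787 to 1.44 (2 higher and 1 lower at an unadjusted p under 0.05). The difference between these subunits and Cdc20 or Ube2c was not tested.

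All 7 genes of the central spindle and cytokinesis were higher. Prc1 (chr7:80294450-80316259), which bundles antiparallel microtubules of the central spindle, was at 12.6, 11.2, 7.92 and 11.4 against 1.23, 1.34, 1.46 and 1.77 CPM (7.44-fold, log2 fold change 2.90 with SE 0.22, edgeR adjusted p = 1.2e-05). Kif20a, a kinesin that carries the passenger complex to the midzone, was at 8.71, 7.02, 6.95 and 8.81 against 1.57, 1.34, 2.24 and 2.27 CPM (4.24-fold, log2 fold change 2.09 with SE 0.23, edgeR adjusted p = 9.26e-05). Anln (chr9:22332012-22389188), the anillin scaffold of the contractile ring, was at 10.4, 9.72, 4.56 and 8.39 against 0.896, 1.43, 1.91 and 1.64 CPM (5.63-fold, log2 fold change 2.49 with SE 0.32, edgeR adjusted p = 0.000234). In these 3 genes the controls stayed within a narrow band below all DKO livers. The centralspindlin genes Racgap1 and Kif23 were 5.45-fold and 2.21-fold higher. Racgap1 reached 8.98-fold without WT-7067. The Kif23 call (edgeR adjusted p = 0.0392) was the least firm of the 45: its groups overlapped, and it ended without DKO-7070, DKO-7112, DKO-7137, WT-7067, WT-7114 or WT-7139 and with limma voom (adjusted p from 0.0515 to 0.128). Ect2, which activates RhoA at the furrow, was 3.11-fold higher (edgeR adjusted p = 0.0046), and Kif20b, a further midzone kinesin, 4.25-fold (edgeR adjusted p = 0.00032).

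Both centriole genes and Foxm1 were higher as well. Plk4 (chr3:40800019-40816883), the kinase that starts centriole duplication, was at 5.26, 6.66, 5.10 and 3.52 against 2.69, 1.91, 2.13 and 1.64 CPM (2.45-fold, log2 fold change 1.29 with SE 0.26, edgeR adjusted p = 0.00326). Stil (chr4:115000159-115043196), its partner in building the new centriole, was at 3.94, 3.96, 1.95 and 2.49 against 1.46, 0.859, 0.785 and 0.252 CPM (3.68-fold, log2 fold change 1.86 with SE 0.43, edgeR adjusted p = 0.00667). Foxm1 (chr6:128362967-128376146), which activates many of these genes in dividing cells, was at 10.4, 9.63, 5.54 and 8.50 against 1.23, 1.15, 2.36 and 0.379 CPM (6.67-fold, log2 fold change 2.72 with SE 0.39, edgeR adjusted p = 0.000445). In all 3 the lowest DKO library was above the highest control.

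Per kilobase of exon, so that genes can be compared, the highest levels in DKO livers were those of Mki67 (6.06 CPM per kb), Smc4 (5.48), Cdc20 (3.89), Top2a (3.47) and Ube2c (3.17), and the lowest that of Ndc80 (0.283). In controls Smc4 (3.30), Spc24 (2.61) and Spc25 (2.35) led, followed by Smc2 (1.13), Aurka (1.03), Ncapd2 (1.03) and Mki67 (1.00). Cdc20 and Ube2c stood at 0.574 and 0.302 CPM per kb in controls. These levels use the union of annotated exons as length, so the order depends on the isoforms made.

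The order of the DKO livers was much the same from gene to gene. The summed level of the 48 genes was 531.7, 462.5, 311.0 and 401.3 CPM in DKO-7068, DKO-7070, DKO-7112 and DKO-7137, against 132.2, 109.2, 128.9 and 102.8 CPM in the controls (426.6 ± 93.7 against 118.3 ± 14.47, mean ± SD, 3.606-fold). DKO-7068 was the highest DKO library for 32 of the 48 genes and DKO-7112 the lowest for 34. Even so, DKO-7112 exceeded every control for 44 genes. The animal tags start with 70 or 71, and both 70 libraries were above both 71 libraries of the DKO group for 33 genes. Within the 70 tags (2 DKO against 2 controls) the median fold was 5.124, and within the 71 tags 3.42, with 48 and 47 genes above 1. A fit with the tag series as a batch also called 45 genes. The labels do not say whether the tags mark a batch.

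Markers of several other cell types were called in DKO livers too; over all genes tested 19.2% were higher and 16.6% lower. Of 13 tested markers of recruited macrophages 11 were higher in DKO livers, and their summed level was 321.3 to 1213 CPM against 67.0 to 138.8 CPM in controls. Of 12 stellate cell and fibroblast markers 8 were higher and 2 lower (summed 2031 to 3054 against 481.7 to 685.2 CPM), of 4 tested bile duct markers 2 were higher (113.1 to 905.4 against 37.33 to 61.2 CPM), and of 10 Kupffer cell markers 5 were higher (520.7 to 599.7 against 332.9 to 561.9 CPM). Of 12 endothelial markers 2 were higher and 4 lower, of 2 tested T, NK and B cell markers 1 was higher (10.2 to 17.9 against 4.795 to 9.26 CPM), and of 6 tested erythroid and megakaryocyte markers 1 was higher and 1 lower. The globin genes Hba-a1, Hba-a2, Hbb-b1, Hbb-bs and Hbb-bt and Gata1 were at 0 counts in DKO livers and controls alike. The globin genes were also at 0 in every BKO library and control, so they cannot show the red cell content of any group. The reason for these zeros was not tested. Of 13 tested hepatocyte markers 7 were lower and 1 higher (109900 to 133400 against 159200 to 191400 CPM). Across the 4 DKO livers, DKO-7112 had the highest macrophage sum (1213 CPM) and bile duct sum (905.4 CPM) and the lowest mitosis sum (311.0 CPM). The macrophage and bile duct lists share the gene Spp1, so these 2 sums are not independent. The part of any of these cell types in the mitosis result was not tested, and the cells that carried the mitosis transcripts are not identified by bulk counts.

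**Figure D3:**
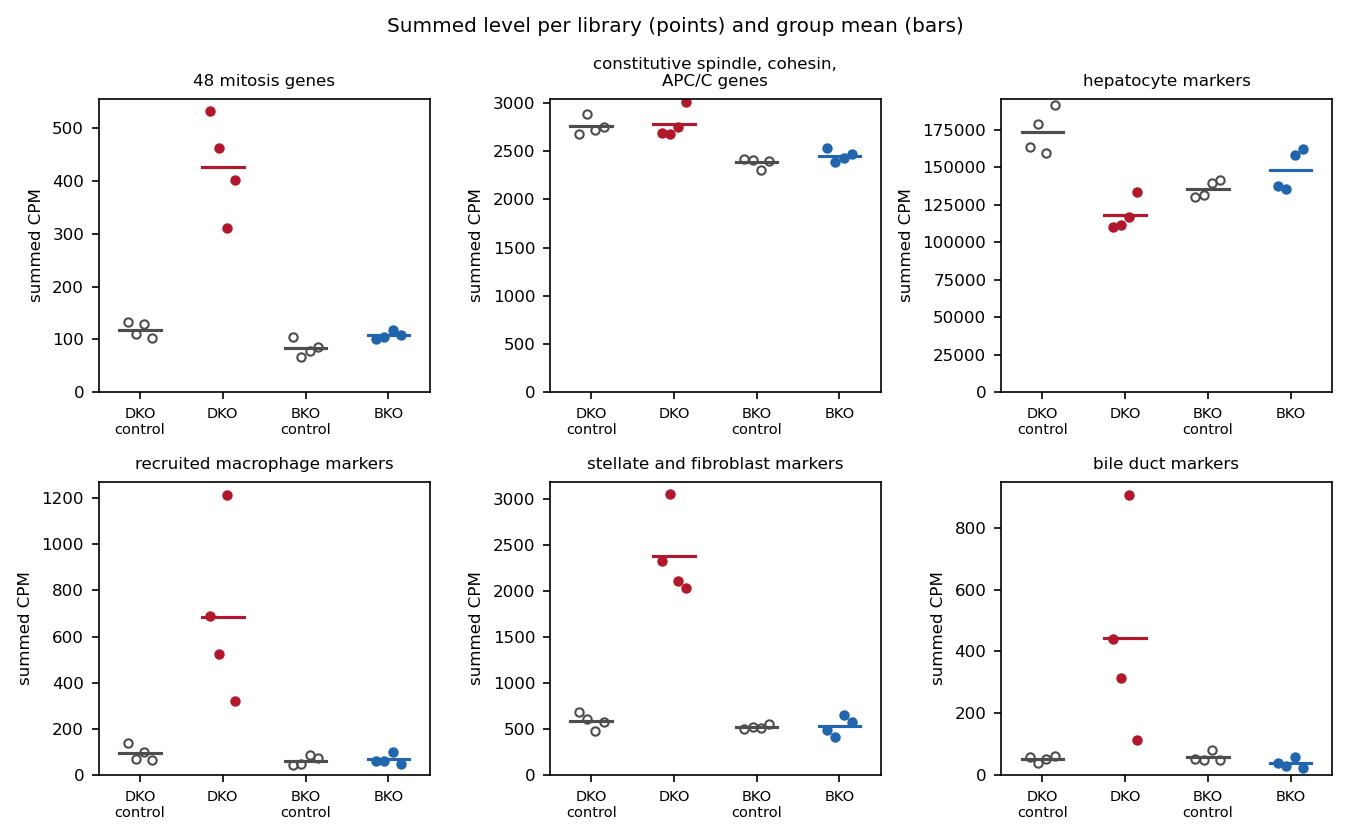
Summed CPM of the gene lists on the vertical axis, with a point per library and a bar at the mean of each group of 4. DKO livers stand at 311.0 to 531.7 CPM for the 48 mitosis genes against 102.8 to 132.2 CPM in their controls. Macrophage, stellate cell and bile duct sums are also higher in DKO livers. BKO livers overlap their controls in each panel, at 100.2 to 117.6 against 67.35 to 104.6 CPM for the mitosis genes. The bile duct sums of BKO livers are 23.73 to 57.34 against 49.25 to 80.61 CPM.

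In BKO livers 1 mitosis gene was called. Of the 48, 44 passed the filter on low counts and were tested; Bub1, Ttk, Ndc80 and Nuf2 were not. Stil was higher (2.27% of 44, against 0.185% of all 14061 genes tested), and 0 genes were lower (against 0.398%). At an unadjusted p under 0.05, 1 gene was lower, Spc25 (against 5.75% of all genes), and 10 were higher (22.7%, against 5.88%): Top2a, Mki67, Ncaph, Spc24, Tpx2, Aspm, Cdc20, Ect2, Stil and Foxm1. DESeq2 and limma voom also called 1. The median log2 fold change of the 44 was 0.271, against 5.14e-05 over all genes tested, and 34 of 44 were above 0. The summed level of the 48 genes was 100.2, 103.8, 117.6 and 107.9 CPM in F1, F3, F4 and F6, against 104.6, 77.08, 67.35 and 84.6 CPM in the controls F2, F5, F5-2 and F7 (107.4 ± 7.512 against 83.42 ± 15.81). The groups overlapped through F2, the highest BKO control for 28 of the 48 genes. Of 82 tested cell type markers, 0 were called by edgeR in BKO livers (3 higher and 6 lower at an unadjusted p under 0.05), where so few of all genes were called (0.185% higher and 0.398% lower) that a count of 0 says little. All 8 tested bile duct markers had a log2 fold change below 0 in BKO livers (median -0.897), 4 of them at an unadjusted p under 0.05 (against 5.75% of all genes).

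Mki67 illustrates the size of what did not pass. It was at 8.39, 12.1, 10.7 and 9.71 CPM in F1, F3, F4 and F6 and at 8.61, 6.66, 4.81 and 5.54 CPM in F2, F5, F5-2 and F7 (log2 fold change 0.67 with SE 0.19, edgeR adjusted p = 0.177). Top2a was at 5.15, 3.63, 5.50 and 4.07 against 4.03, 1.37, 1.86 and 2.36 CPM (log2 fold change 0.92 with SE 0.31, edgeR adjusted p = 0.261). In each gene 1 or more controls reached into the BKO range. Groups separated upward for 4 of the 44 genes, Stil, Cdc20, Ect2 and Foxm1 (9.09%, against 3.64% of all genes tested), and downward for Spc25 (against 3.36%), which was at 2.01, 1.96, 2.63 and 2.05 against 4.64, 2.86, 3.39 and 2.73 CPM (log2 fold change -0.66 with SE 0.24, edgeR adjusted p = 0.296). Counts were few in the BKO experiment too: 24 of the 48 genes had a control mean under 1 CPM, and 10 had fewer than 50 counts over all 4 controls.

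Stil stood out in the BKO livers by its fold. It was at 1.67, 2.25, 2.11 and 1.24 CPM in F1, F3, F4 and F6 and at 0.294, 0.157, 0.102 and 0.0909 CPM in F2, F5, F5-2 and F7 (1.82 ± 0.459 against 0.161 ± 0.0933, 11.3-fold, log2 fold change 3.42 with SE 0.44, edgeR adjusted p = 0.0068). The lowest BKO liver was above the highest control, and the sums behind these levels were 234 and 19 counts. The controls F2, F5, F5-2 and F7 held 10, 4, 3 and 2 counts. Stil thus passed the filter on low counts through the BKO livers, and a lower call was hardly possible. The fold was between 9.87 and 15.6 with any 1 library left out, and the call held in all 15 alternatives tried (adjusted p at most 0.0283). The DKO experiment gave 134 counts against 31. The partner kinase gene Plk4 was at 2.06, 1.96, 2.23 and 2.38 against 2.12, 0.862, 1.53 and 2.32 CPM in the BKO experiment (log2 fold change 0.34 with SE 0.31, edgeR adjusted p = 0.733). The genes beside Stil were not called in BKO livers: Cmpk1, a nucleotide kinase gene 12.92 kb away, was at 52.5 against 46.1 CPM, and Tal1, a blood transcription factor gene 13.23 kb away, at 1.46 against 1.62 CPM (edgeR adjusted p = 0.452 and 0.918). In DKO livers the same neighbours had edgeR adjusted p = 0.199 and 0.152. Cmpk1 had log2 fold changes of opposite sign, -0.19 in DKO livers and 0.19 in BKO livers, neither called. When the DKO and BKO effects were compared, the difference for Cmpk1 was called (-0.40 on the log2 scale with SE 0.13, edgeR adjusted p = 0.0344). Tal1 was not called there (0.62 with SE 0.43, edgeR adjusted p = 0.317). No other gene of GENCODE M21 overlaps Stil. Its promoter window held CCAAT letters, the E2F core letters on the opposite strand and no TTTGAA. Searched on both strands, the E2F core letters were in the windows of 3 of the 42 genes, Stil among them.

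**Figure D4:**
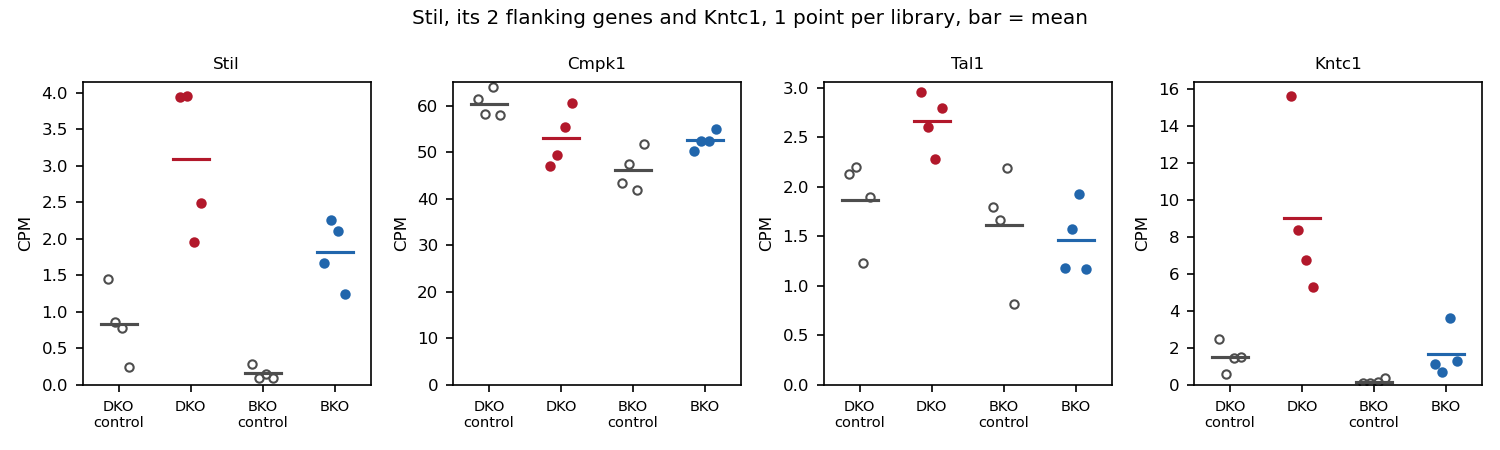
Level in CPM on the vertical axis of Stil, of the genes on either side of it (Cmpk1 and Tal1) and of Kntc1, a kinetochore gene, with a point per library and a bar at the mean for the 4 groups. Stil and Kntc1 are higher in both knockouts than in their own controls, and the neighbours are not called in either knockout against its controls.

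The DKO effect was larger than the BKO effect for many of the genes when the difference itself was tested in a fit over all 16 libraries. Of 48 genes, 25 had a larger effect in DKO (52.1%, against 11.0% of 14050 genes tested), 0 a smaller one (against 11.5%) and 23 did not pass. At an unadjusted p under 0.05, 1 gene, Stil, had a smaller effect (against 17.6% of all genes), and DESeq2 and limma voom called 0 smaller. The median difference was 1.73 on the log2 scale, against -0.00964 over all genes. By p-value the first were Mki67 (1.90 with SE 0.28, edgeR adjusted p = 0.000155), Cenpf (3.24 with SE 0.50, edgeR adjusted p = 0.000228) and Anln (2.77 with SE 0.44, edgeR adjusted p = 0.000253). Plk1 had the largest difference (3.79 with SE 0.62, edgeR adjusted p = 0.000337): it was at 0.834, 0.920, 0.641 and 0.587 CPM in BKO livers and 1.12, 0.235, 1.02 and 0.363 CPM in their controls. Cenpf was at 1.13, 1.45, 1.65 and 1.70 against 2.35, 1.14, 0.542 and 1.18 CPM, and Anln at 1.18, 1.19, 1.62 and 1.27 against 2.32, 1.18, 1.80 and 1.14 CPM, in BKO livers and controls. The BKO livers overlapped their controls for all of these genes, while the DKO livers did not. Of the 25 calls, 20 held in all 23 alternatives. Bub1, Ttk, Ndc80 and Nuf2, too low to be tested in BKO livers alone, entered this fit mainly through their DKO counts. Of these only Bub1 was called (edgeR adjusted p = 0.0466). It had 22 counts in BKO livers and 21 in their controls, and its call ended in 12 of the 23 alternatives. The 2 effects come from tables of different depth, each with its own controls.

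Only Stil and Spc24 had a smaller effect in DKO than in BKO livers by sign, and neither passed: Stil at -1.57 with SE 0.63, edgeR adjusted p = 0.0819 and Spc24 at -0.39 with SE 0.39, edgeR adjusted p = 0.526. Stil passed without WT-7139 or without F2, and Ttk (0.48) turned to -1.62 without F2, where it was not called (edgeR adjusted p = 0.418). All 34 genes above 0 in BKO livers were also above 0 in DKO livers, where 48 of 48 were. Of these signs, that of Spc24 in DKO livers turned without DKO-7068 (-0.0045) or WT-7069 (-0.015), and those of 18 genes in BKO livers turned in at least 1 alternative; none of these values was called.

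**Figure D5:**
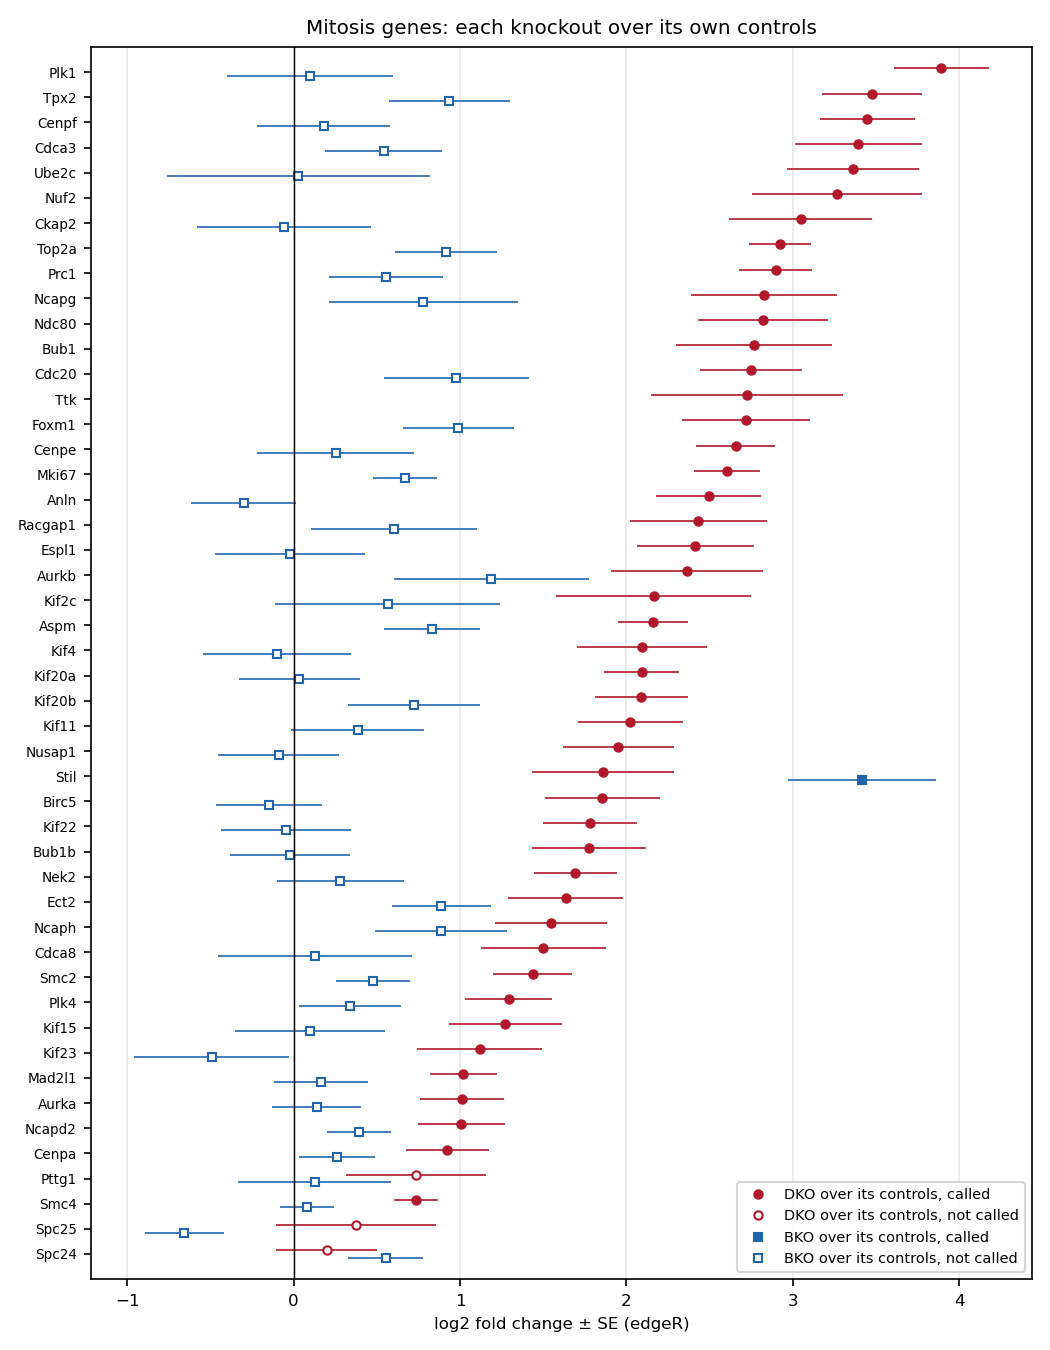
Log2 fold change with its SE on the horizontal axis for each mitosis gene, DKO as circles and BKO as squares, filled where called, in the order of the DKO value; 4 genes have no BKO test. The DKO points run from 0.20 to 3.89 and most BKO points lie between -0.66 and 1.19, with Stil at 3.42.

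A wider list of 80 other genes of mitosis behaved less uniformly. In DKO livers 62 were tested, of which 41 were higher (66.1%, against 19.2% of all genes) and 2 lower (3.23%, against 16.6%), with a median log2 fold change of 1.44. Hmmr, a spindle pole protein gene, was 16.9-fold higher (9.06 against 0.536 CPM, edgeR adjusted p = 1.76e-05), Cenpm, a centromere protein gene, 8.14-fold (edgeR adjusted p = 1.34e-05), Cdca2, a phosphatase targeting subunit gene, 10.3-fold (edgeR adjusted p = 6.92e-05) and Ckap2l, a spindle protein gene, 8.64-fold (edgeR adjusted p = 2.09e-05). The lower genes were Ccnf, which encodes cyclin F, at 6.16, 5.13, 7.06 and 6.01 against 9.74, 12.0, 15.8 and 28.4 CPM (log2 fold change -1.43 with SE 0.31, edgeR adjusted p = 0.00545), and Hjurp, the loader of centromeric histone Cenpa, at 8.87, 6.30, 7.27 and 4.97 against 15.5, 11.1, 13.8 and 8.83 CPM (log2 fold change -0.84 with SE 0.22, edgeR adjusted p = 0.0143). Each ran opposite to most of its list. Among the 19 that did not pass, the most abundant were Zwint (52.6 against 47.8 CPM), Wee1 (22.2 against 30.7), Mis12 (18.7 against 26.4) and Ncapd3 (19.96 against 21.9). Ncapd3 belongs to condensin II, whose Ncapg2 was 3.60-fold (edgeR adjusted p = 0.00136) and Ncaph2 1.23-fold higher (edgeR adjusted p = 0.0499).

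In BKO livers 1 of 61 tested genes of that list was higher, Kntc1, which encodes a checkpoint protein of the kinetochore (1.64%, against 0.185% of all genes). By edgeR, DESeq2 or limma voom 0 were lower. At an unadjusted p under 0.05, 2 were lower (against 5.75% of all genes), the same 2 as in DKO livers. These were Ccnf (log2 fold change -0.66 with SE 0.24, edgeR adjusted p = 0.317) and Hjurp (-0.49 with SE 0.14, edgeR adjusted p = 0.168). Kntc1 was at 1.13, 0.727, 3.60 and 1.27 CPM in F1, F3, F4 and F6 against 0.118, 0.157, 0.102 and 0.363 CPM in F2, F5, F5-2 and F7 (9.10-fold, log2 fold change 3.23 with SE 0.62, edgeR adjusted p = 0.0413). F4 was the highest, and the groups did not overlap. The call ended in 9 alternatives (adjusted p up to 0.151), among them leaving out F1, F4 or F6 or any 1 control. In DKO livers Kntc1 was 5.99-fold higher (edgeR adjusted p = 0.00162). In the test of the difference 14 of 75 genes of the list had a larger effect in DKO (18.7%, against 11.0%).

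Spindle, cohesin and anaphase promoting complex genes that are made in resting cells as well were mostly not called. Of 50 tested in DKO livers 3 were higher (6.0%, against 19.2%), 4 lower (8.0%, against 16.6%) and 43 did not pass, with a median log2 fold change of 0.0604. Cep192, a centrosome scaffold gene, was 2.01-fold higher (edgeR adjusted p = 0.00113), and the transport kinesin gene Kif1b and the checkpoint gene Mad1l1 were lower, at 0.732 and 0.740 of the control level (edgeR adjusted p = 0.0212 and 0.0216). In BKO livers 0 of 48 were called by edgeR, DESeq2 or limma voom (5 higher and 1 lower at an unadjusted p under 0.05). The summed level of this list was 2676 to 3008 CPM in DKO livers and 2682 to 2887 CPM in controls.

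Of 23 regulators in the DREAM and MYBL2-MuvB pathway that control such promoters, 10 were higher in DKO livers (43.5%, against 19.2%) and 3 lower (13.0%, against 16.6%), with a median log2 fold change of 0.427. The smallest p-values were those of E2f7, a repressor made in dividing cells (8.21, 8.19, 2.61 and 7.05 against 1.01, 0.668, 0.337 and 0.757 CPM, 9.41-fold, edgeR adjusted p = 0.000321), of E2f2, an activator (11.2, 15.3, 8.90 and 9.64 against 3.25, 1.62, 1.35 and 3.28 CPM, 4.74-fold, edgeR adjusted p = 0.00033), and of Foxm1, given above. Every DKO liver exceeded every control for these genes. In BKO livers 0 of the 23 were called by edgeR, DESeq2 or limma voom (3 higher and 0 lower at an unadjusted p under 0.05).

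The symbols of all 48 genes matched GENCODE M21, and 26 of them overlap another annotated gene there, 18 on the opposite strand. Exon bases are shared by 14 genes, and by over 10% of the length in 5: Kif20a with Cdc23 (29.3%), Ube2c with Tnnc2 (22.8%), Kif4 with Pdzd11 (15.1%), Ncapg with Lcorl (13.4%) and Prc1 with Rccd1 (11.1%). Since no source used here states the strand setting of the counting, reads in these stretches cannot be assigned with certainty. In DKO livers the partner Rccd1 was higher (3.90 against 1.91 CPM, edgeR adjusted p = 0.0112) and Lcorl lower (16.6 against 22.9 CPM, adjusted p = 0.035), Cdc23 and Pdzd11 were not called, and Tnnc2 was at 0.0205 against 0 CPM. Prc1 was above Rccd1 in DKO livers (10.8 against 3.90 CPM) and below it in controls (1.45 against 1.91 CPM).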

How the data were processed

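Liver RNA was extracted with TRIzol and an RNeasy kit and sequenced from NuGEN Ovation libraries, per the labels' protocols. The values the authors deposited are raw counts per gene, 1 table per experiment. Reads were trimmed, aligned and counted with tools that include HISAT2 2.1.0, featureCounts 1.6.2 and Trim Galore 0.4.1, per the submitters' processing notes. The notes give mm10, GRCm38 and GRCh38 as builds, with no role for each. No source used here gives the annotation, the strand setting or the treatment of shared reads.

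Libraries were grouped by genotype label. Each table had 24421 gene rows and 0 columns without a sample. Among the BKO rows, 27 gene names had become dates (septin genes among them), so the fit over both tables used 24394 genes. The main test was edgeR 4.0.16 in R 4.3.3 (filterByExpr, TMM scaling, robust quasi-likelihood) on the whole table, with calls at an adjusted p (Benjamini-Hochberg) under 0.05. Its p-values weigh the difference between groups against the spread between these libraries, which is estimated in part from all genes. Each SE was taken from the F statistic of its log2 fold change, and folds are ratios of mean CPM. The mitosis genes, the other lists and the tests were chosen with earlier results of these data known. Genes named with full values were the 2 members of each functional group with the smallest DKO p-value, members not called in DKO, called in BKO or first by p in the difference, and the first few of each other list; further names were chosen after their values were seen. On simulated counts the DKO fit recovered 10.4%, 55.2% and 89.4% of genes changed 1.5, 2 and 4-fold (12848 genes), the BKO fit 22.4%, 68.7% and 86.4% (14061) and the fit of the difference 5.97%, 29.9% and 71.2% (14050). Unchanged genes made up 2.83% of the simulated calls in the DKO fit, 8.53% in the BKO fit and 4.05% in the fit of the difference. The BKO share was above the level that the threshold of 0.05 aims at. Alternatives were other scalings and filters, DESeq2 1.42.0, limma 3.58.1 with voom, each library left out, libraries that may share a source summed, and the tag series as a batch. Coordinates and exon lengths are from GENCODE M21 on GRCm38, promoters from RefSeq.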

Additional observations from a re-analysis of the deposited data

Results flagged for a closer look

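In the test of the difference, run gene by gene, 25 of the 48 mitosis genes had a larger effect in DKO than in BKO livers (52.1%, against 11.0% of 14050 genes tested). The group was not tested as a set. Mki67 (a difference of 1.90 on the log2 scale), Cenpf (3.24) and Anln (2.77) had the smallest p-values of these genes.

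Within groups of 4, the highest or lowest library of a mitosis gene stood apart from the other 3 (Dixon's test at the 95% level) in 11 of 192 groups, or 5.73%, where chance flags about 1 in 20. Of the controls of the DKO livers, WT-7069 had 3.63 CPM of Spc24 (next 7.44), WT-7139 had 1.89 CPM of Spc25 (next 8.86) and WT-7114 had 1.68 CPM of Kif2c (next 0.252). Of the BKO livers, F1 was low for Ttk (0.049 CPM, next 0.456) and Kif2c (0.049, next 0.397), and F4 was high for Spc25 (2.63, next 2.05). F6 was high for Kif22 (1.70, next 0.981), Ect2 (7.33, next 4.09) and Foxm1 (1.92, next 1.26). Of the BKO controls, F2 was high for Ube2c (0.735, next 0.373) and Kif23 (2.62, next 0.823). No DKO library was flagged for any of the 48 genes.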

How the results depend on the processing

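The count of mitosis genes called in DKO livers was 45, 43 to 45 with any 1 library left out and 44 to 45 under 8 other settings. In BKO livers it was 1, and 1 in all 15 alternatives. The count for the difference was 25, 21 to 30 with any 1 library left out and 23 to 33 under 7 other settings, with 33 under scaling by total counts and 30 with the DESeq2 Wald test. Stil was called lower in the difference without WT-7139 (-1.85, adjusted p = 0.0347) and without F2 (-2.06, adjusted p = 0.037). Scaling by total counts moved the median of all genes to 0.198 (DKO), -0.0656 (BKO) and 0.268 (difference) on the log2 scale. For single mitosis genes 759 of 768 alternative DKO values and 644 of 644 BKO values stayed on the same side of the threshold; in the difference 1020 of 1104 did, 42 crossed into and 42 out of the calls. The sign changed in 51 of 2516 values, 2 in DKO (Spc24), 48 in BKO (18 genes) and 1 in the difference (Ttk, from 0.48 to -1.62 without F2), of which 0 were called before or after. The cause of these moves was not tested. No paired analysis was run, because the labels do not state which libraries of different groups belong together. Some DKO and control tags have close numbers, such as DKO-7068 and WT-7067, but the labels give this no meaning. Of the 48 genes, 10 had under 50 counts over all BKO controls, Stil (19 counts) among them, so their BKO folds rest on few reads.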
